A study of Homo sapiens with 42 samples.

Results

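The 40 genes described here build and run the DNA replication fork: origin licensing and firing factors, subunits of the GINS complex, the replicative polymerases and primase, the sliding clamp PCNA with its loaders, single-strand binding and Okazaki fragment joining proteins, fork protection proteins, and chromatin assembly and histone supply factors. They were chosen by name, from textbook roles, and not by a threshold on any measured value, but with earlier results of these data known. Of the 40 genes, 36 were measured, meaning that at least 1 of their probes lay above background on at least 3 arrays of at least 1 group, among 8917 such genes in all. CDC6, DBF4, GINS1 and CLSPN were not. CDC6, which loads the helicase at origins, was above background on 4 of 42 arrays (1 control, 2 AZD1152 arrays and 1 SNS-314 array at 6 h), and the other three on 0 arrays, so no change is given for them. Of the 36 measured genes, 30 passed the background filter in all 11 groups, and the other 6 (CHAF1A, ORC1, POLD1, POLD3, TIPIN and WDHD1) passed in the controls but not in every inhibitor group.

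RNA came from 1205Lu, an established human melanoma line, and every array was a single-colour Illumina bead array of 1 sample. The control group was 4 samples at 0 h without inhibitor. Treated cells received AZD1152 at 0.5 µM, an inhibitor selective for Aurora kinase B, or SNS-314 at 0.05 µM, an inhibitor of all Aurora kinases, and were sampled at 6 h (n = 3 for each inhibitor) and at 12, 18, 24 and 48 h (n = 4 each). No untreated sample after 0 h is among those analysed here, so time in culture and inhibitor cannot be told apart in any comparison with 0 h. The labels do not say that replicates were separate cultures, so the p-values rest on differences between these samples alone, and that spread may be technical. In bulk RNA, fewer cells of a type and less RNA per cell cannot be told apart.

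Median signal ranged from 210.0 to 338.6 over the 42 arrays, and 20.5% to 30.4% of probes lay above background. Pearson correlations of log2 values between replicates of a group were 0.968 to 0.994. AZD1152 18 h replicate 1, SNS-314 12 h replicate 4 and SNS-314 24 h replicate 4 each had the lowest median correlation of their group (0.970, 0.975 and 0.982). No other group had an array that low, and counts without these 3 arrays are given where they differ. AZD1152 18 h replicates 2, 3 and 4 (0.977, 0.978 and 0.976) also lay below SNS-314 24 h replicate 4 and were kept in those counts. Of 7 melanocyte lineage markers with a probe, 1 (SOX10) was above background, whereas MITF, PMEL, MLANA, TYR, TYRP1 and S100B were not. Among markers of other cell types, 1 of 6 for fibroblasts (PDGFRB), 1 of 4 for keratinocytes (KRT10), 0 of 5 for leukocytes and 0 of 5 for endothelium were above background.

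Replication begins at origins, where the origin recognition complex, CDC6 and CDT1 load the MCM helicase. Kinases then activate the helicase together with CDC45 and GINS, primase and polymerase alpha lay down primers, and polymerases epsilon and delta extend them while clamped to DNA by PCNA. Many of these genes are transcribed in waves before and during S phase, under E2F transcription factors, which bind sites of the general form TTTGGCGC. For that reason the promoters were searched, and the sites are shown here before the expression values.

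Promoter sequences (250 bases before to 50 after the transcription start, GRCh38.p14, RefSeq) were found for 35 of the 40 genes. The letters searched, on both strands, were TTTGGCGC, TTTCGCGC, TTTCCCGC, TTTGCCGC and TTTGGCGG. Reverse complements can overlap one another, as they do in TIPIN. At least 1 match was present in 18 of the 35 genes (51.4%), against 3.92% of all 35116 promoters and 4.72% of all 27305 genes in the table. TTTGGCGC occurred in 8 of the 35 genes (22.9%, against 0.652% of all promoters), and TTTGCCGC in 0 of the 35 (0.607% of all promoters). A match of letters is a description and does not show that a factor binds. The 130 bases from 120 before to 10 after the start are shown for 6 genes with a match. The expression of these 6 is described in detail. They are therefore not a sample of the list. GMNN and PCNA also have a promoter without a match, which is not shown. FEN1, RFC5, CHAF1B, SLBP, ORC1, ORC6, POLD2 and WDHD1, also described in detail, held no match and are not shown. RFC1, LIG1 and TIPIN held a match and are not shown either. Matches are in capitals (a match on the opposite strand appears as its reverse complement):
GINS3, chr16:58392351-58392480, plus strand: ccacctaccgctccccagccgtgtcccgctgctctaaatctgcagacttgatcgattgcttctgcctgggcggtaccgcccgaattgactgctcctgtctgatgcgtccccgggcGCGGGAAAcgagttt
CHAF1A, chr19:4402520-4402649, plus strand: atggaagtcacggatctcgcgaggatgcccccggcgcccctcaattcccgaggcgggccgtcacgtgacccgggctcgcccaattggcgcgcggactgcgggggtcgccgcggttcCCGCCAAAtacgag
CDC25A, chr3:48188408-48188537, minus strand: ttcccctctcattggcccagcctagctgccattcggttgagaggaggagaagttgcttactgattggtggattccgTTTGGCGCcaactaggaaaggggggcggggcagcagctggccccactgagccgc
GMNN, chr6:24775293-24775422, plus strand: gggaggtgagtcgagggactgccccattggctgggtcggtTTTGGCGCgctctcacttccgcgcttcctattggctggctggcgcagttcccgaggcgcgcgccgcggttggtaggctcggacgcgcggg
PCNA, chr20:5126613-5126742, minus strand: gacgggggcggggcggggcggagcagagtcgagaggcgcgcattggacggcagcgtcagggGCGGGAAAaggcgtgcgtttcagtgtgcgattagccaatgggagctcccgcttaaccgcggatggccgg
POLA2, chr11:65261842-65261971, plus strand: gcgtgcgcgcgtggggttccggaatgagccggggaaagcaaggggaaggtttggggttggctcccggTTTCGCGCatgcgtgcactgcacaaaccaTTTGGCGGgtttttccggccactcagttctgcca
The match is 8 letters long and begins 5 bases before the start in GINS3 and 4 before it in CHAF1A, so it runs across the start in both. It lies further upstream in CDC25A, GMNN and PCNA, and POLA2 holds 2 matches. Of the 31 measured genes with a promoter in the table, 15 held a match. Their median log2 fold change at 48 h was -1.16 with AZD1152 and -1.25 with SNS-314, against -1.03 and -1.04 in the 16 without a match. The ranges of both sets overlapped (-1.62 to -0.31 with a match and -1.48 to 0.28 without, AZD1152). The difference between the sets was not tested.

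With both inhibitors most of the replication genes fell by 48 h, and none was called higher than 0 h at any time in the model over all arrays (ORC6 was in other fits, given with its values). Of all genes, 1.2%, 1.45%, 8.02%, 7.56% and 20.8% were called higher at 6, 12, 18, 24 and 48 h of AZD1152, and 1.93%, 1.95%, 4.08%, 9.11% and 22.3% with SNS-314. No gene of the 36 was called lower at 6 h, against 1.49% of all 8917 genes with AZD1152 and 1.78% with SNS-314; at an unadjusted p below 0.05, 0 and 0 were lower (6.06% and 7.13% of all genes), and CDC25A was higher with AZD1152. At 12 h, 5 of 36 were called lower with AZD1152 and 9 of 36 with SNS-314 (2.83% and 3.63% of all genes). At 18 h the counts were 26 and 27 (9.72% and 5.64% of all genes), at 24 h 30 and 30 (9.21% and 10.7%), and at 48 h 34 and 35 (21.8% and 23% of all genes). Over the 30 genes that passed the background filter in every group, the 48 h counts were 28 and 29. The shares above are over all 8917 genes, and no share is given for all genes that passed in every group. Calls throughout are limma p-values below 0.05 after Benjamini-Hochberg adjustment over all genes. The 48 h counts were 36 and 35 of all 40 listed genes when the background filter was dropped, a setting for which no share of all genes is given. Those 40 take in CDC6, DBF4, GINS1 and CLSPN, which were not measured. DBF4, GINS1 and CLSPN were above background on 0 arrays, so these 2 counts are not evidence of falls in further genes.

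**Figure D1:**
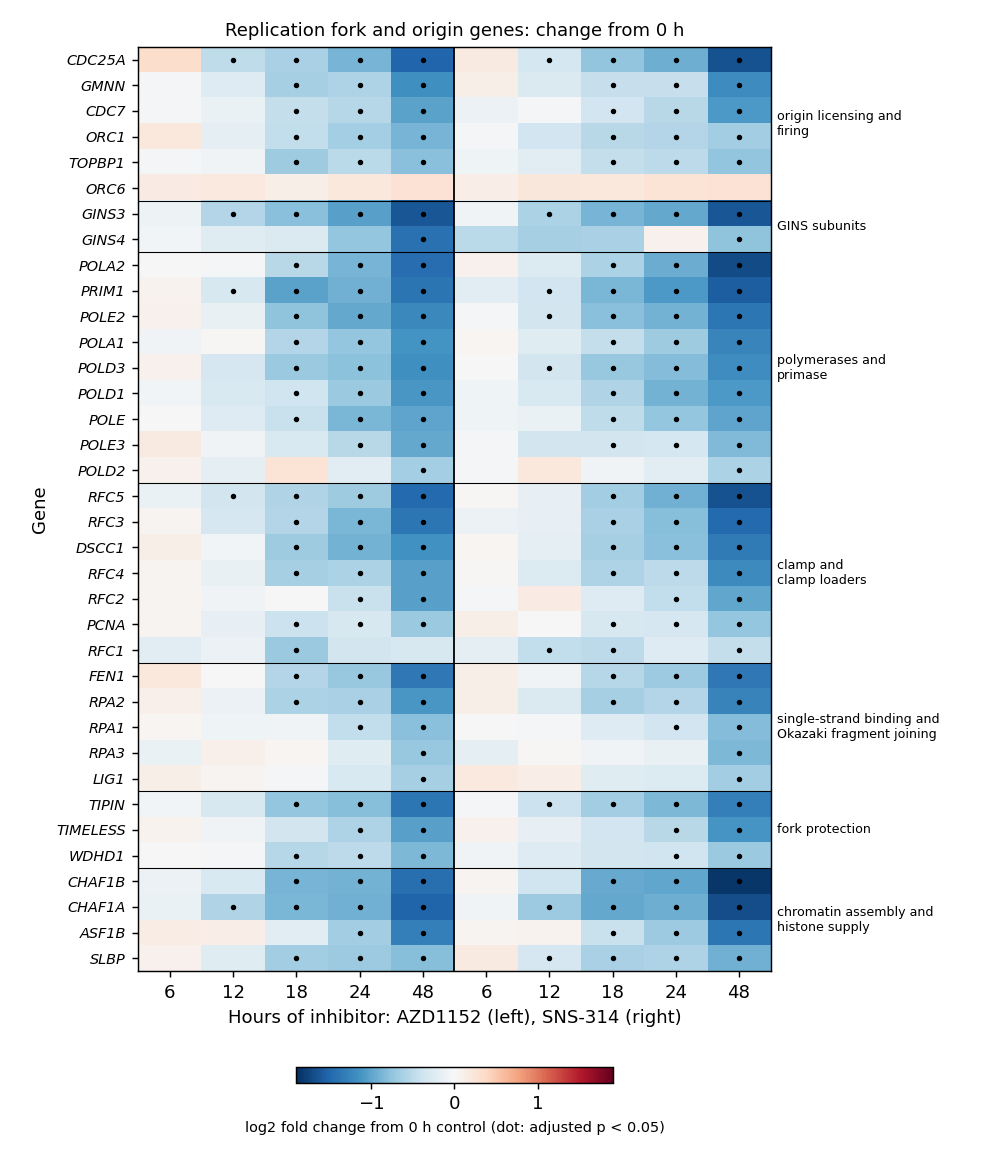
Log2 fold change from 0 h of each of the 36 measured genes (rows, grouped by role) at each time in hours (columns, AZD1152 left and SNS-314 right), with a dot where the adjusted p was below 0.05. The columns darken towards 48 h, where 34 genes were called lower with AZD1152 and 35 with SNS-314, and ORC6 is the row without a dot.

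The median log2 fold change of the 36 genes was 0.05 and -0.01 at 6 h (AZD1152 and SNS-314), -0.14 and -0.25 at 12 h, -0.55 and -0.54 at 18 h, -0.67 and -0.57 at 24 h, and -1.11 and -1.15 at 48 h. Over all genes the median stayed between -0.01 and 0.01 in the same comparisons. Without the 3 arrays that stood apart, the counts were 6, 25, 32 and 35 from 12 to 48 h with AZD1152, and 5, 29, 29 and 35 with SNS-314. At 48 h, 34 of the 36 were called lower with both inhibitors, 23 had a fall of more than 2-fold with AZD1152 and 21 with SNS-314, counting genes below background on all 4 arrays at their bound. By fitted values, which add CHAF1A, these counts were 24 and 22 (1.81% and 1.97% of all genes). Every treated array lay below every control array for 35 genes with AZD1152 and 34 with SNS-314 at 48 h, against 22% and 22.8% of all genes. The same held for 13 and 14 genes at 12 h (7.44% and 6.24% of all genes).

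Of the counts against 0 h, those at 12 h moved most when arrays were left out. With AZD1152 the count of 5 fell to 3 without AZD1152 12 h replicate 2, 3 or 4 and without control replicate 1, 2 or 3. With SNS-314 the count of 9 fell to 5 without SNS-314 12 h replicate 3 and to 4 without replicate 4. From 18 h on, leaving out any 1 array gave counts of 24 to 26, 29 to 30 and 34 to 34 with AZD1152, and 23 to 28, 27 to 30 and 34 to 35 with SNS-314.

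The array names end in a letter and 1 of 4 numbers shared by up to 12 arrays. What the number stands for is not stated, and arrays that share it are called a suffix group here. Suffix groups 1 and 2 held 2 controls each, and 3 and 4 held none. Within groups 1 and 2, with 1 treated array against 2 controls each, the median change of the 36 genes at 48 h was -1.01 and -1.13 under AZD1152 and -1.19 and -1.20 under SNS-314. At 24 h it was -0.63 and -0.67, and -0.62 and -0.59, and at 18 h -0.56 and -0.53, and -0.45 and -0.46. The 12 h values within suffix groups were -0.13 and -0.17 (AZD1152) and -0.17 and -0.19 (SNS-314).

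Among origin licensing and firing genes, 5 of 6 measured genes were called lower at 18, 24 and 48 h with each inhibitor. CDC25A, the phosphatase that removes inhibitory phosphates from cyclin-dependent kinases to allow entry into S phase, was among the earliest to fall. Its normalized log2 intensity was 10.36, 10.49, 10.21 and 10.31 on the controls, 9.96, 9.93, 9.75 and 9.82 after 12 h of AZD1152, and 9.94, 9.997, 9.98 and 10.10 after 12 h of SNS-314. All 8 arrays lay below the lowest control. At 6 h the levels stood on the other side of the controls, at 10.63, 10.65 and 10.73 under AZD1152 and 10.53, 10.50 and 10.51 under SNS-314, and neither difference passed the test (log2 fold change 0.33 ± 0.11 SE, adjusted p = 0.11; 0.17 ± 0.11, adjusted p = 0.554). At 12 h AZD1152 gave a change of -0.48 ± 0.10 (adjusted p = 0.00251) and SNS-314 one of -0.34 ± 0.10 (adjusted p = 0.0401). The SNS-314 call was lost without any single array other than control replicate 3 (adjusted p = 0.0507 to 0.14), and also with suffix group as a fixed block (adjusted p = 0.0605), and under scaling to the 75th percentile (adjusted p = 0.12). By 48 h CDC25A stood at 8.83, 8.96, 8.68 and 8.87 with AZD1152 and at 8.62, 8.74, 8.65 and 8.74 with SNS-314. It was 2.85-fold lower (log2 fold change -1.51 ± 0.10, adjusted p = 1.6e-15) and 3.14-fold lower (-1.65 ± 0.10, adjusted p = 6.17e-17).

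GMNN encodes geminin, which holds CDT1 and so keeps origins from being licensed again. Control levels were 10.21, 10.40, 10.16 and 10.23, and the 48 h levels 9.14, 9.04, 9.06 and 9.13 under AZD1152 and 8.92, 8.76, 9.39 and 9.15 under SNS-314. No 48 h array reached the controls. The falls were 2.23-fold (-1.16 ± 0.11, adjusted p = 2.3e-11) and 2.29-fold (-1.19 ± 0.11, adjusted p = 8.68e-12), and GMNN was first called at 18 h with both inhibitors.

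ORC1, the large subunit of the origin recognition complex, was near background. Its levels were 8.91, 8.66, 9.16 and 9.10 on the controls, 8.17, 8.26, 7.92 and 7.93 with AZD1152 at 48 h, and 8.26, 8.37, 8.35 and 8.22 with SNS-314. With AZD1152 at 48 h no array lay above background, so the fall is given as a bound of at least 1.54-fold against the background threshold (fitted -0.89 ± 0.13, adjusted p = 6.63e-07). With SNS-314, where 2 of 4 arrays lay above background, the fitted fall was 1.58-fold (-0.66 ± 0.13, adjusted p = 8.88e-05). Its first call with AZD1152, at 18 h (-0.47 ± 0.13, adjusted p = 0.0121), was lost without AZD1152 18 h replicate 3 (adjusted p = 0.0506), without control replicate 3 (0.0553), and when only the 2 groups compared were fitted (0.0602). CDC7, the kinase that fires origins with DBF4, changed by -1.02 ± 0.10 and -1.09 ± 0.10 at 48 h. TOPBP1, a scaffold for helicase activation and checkpoint signalling, changed by -0.79 ± 0.11 and -0.75 ± 0.11.

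ORC6, the smallest subunit of the origin recognition complex, depended on the probe. Its brightest probe (ILMN_2215061), by which the gene was read, lay in the top of the intensity range, at 15.33, 15.25, 15.23 and 15.06 on the controls, 15.33, 15.31, 15.86 and 15.49 with AZD1152 at 48 h and 15.33, 15.36, 15.53 and 15.73 with SNS-314. The groups overlapped, and the changes of 0.28 ± 0.14 (adjusted p = 0.0974) and 0.27 ± 0.14 (adjusted p = 0.102) did not pass the test. They passed with the replicate block (adjusted p = 0.0218 and adjusted p = 0.0241) and, for SNS-314, with only the 2 groups fitted (adjusted p = 0.0364). The other probe (ILMN_1731070), also above background on all 42 arrays, stood at 9.87, 9.79, 9.94 and 9.71 on the controls, 8.48, 8.78, 8.44 and 8.81 with AZD1152 at 48 h and 8.37, 8.63, 8.77 and 8.32 with SNS-314. By that probe the change was -1.20 ± 0.12 under AZD1152 (adjusted p = 5.84e-11 over all probes) and -1.31 ± 0.12 under SNS-314 (adjusted p = 5.27e-12). Both probes carry the same RefSeq transcript in the array annotation, and which of them follows ORC6 RNA was not tested.

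**Figure D2:**
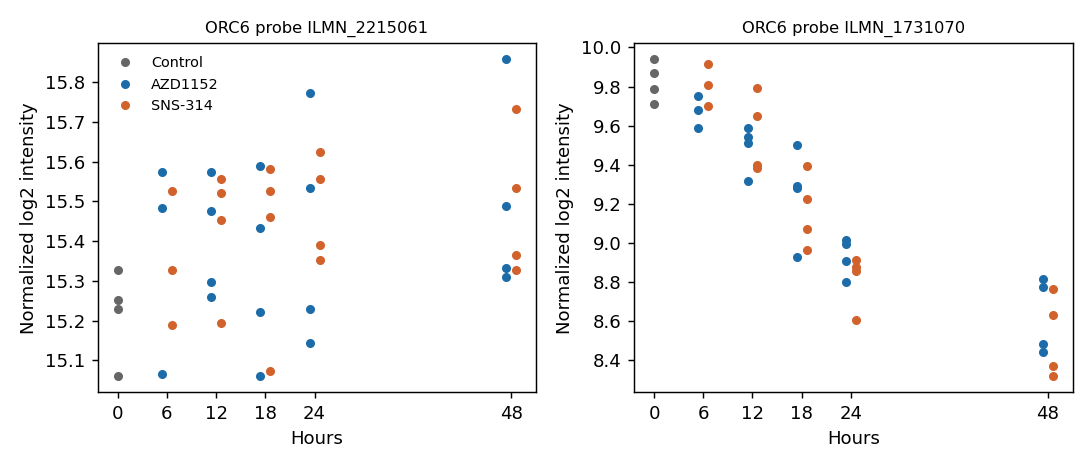
Normalized log2 intensity of the 2 ORC6 probes on each of the 42 arrays against hours of inhibitor (grey, 0 h controls; blue, AZD1152; orange, SNS-314). The brightest probe stays between 15.06 and 15.86, with overlapping groups, while the other falls from at least 9.71 on the controls to at most 8.81 at 48 h.

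The GINS complex is the part of the active helicase that links it to polymerase epsilon and primase. GINS3 fell early and far. Its control levels were 10.24, 10.58, 10.48 and 10.63. After 12 h they were 10.005, 10.04, 10.01 and 9.63 under AZD1152 and 9.93, 10.14, 9.71 and 9.74 under SNS-314, all below the controls. The 12 h changes were -0.56 ± 0.12 (adjusted p = 0.00222) and -0.60 ± 0.12 (adjusted p = 0.000721). At 48 h GINS3 stood at 9.05, 8.83, 8.84 and 8.72 under AZD1152 and 9.14, 8.82, 8.72 and 8.76 under SNS-314, and the falls were 3.08-fold (-1.62 ± 0.12, adjusted p = 1.43e-14) and 3.09-fold (-1.63 ± 0.12, adjusted p = 9.4e-15).

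GINS4 had the largest standard error of the 36 genes. Control levels were 9.62, 9.80, 10.94 and 9.70, and single arrays of other groups also stood near 10.9, such as AZD1152 12 h replicate 3 (10.90) and SNS-314 24 h replicate 1 (10.88). At 48 h AZD1152 arrays read 8.57, 8.74, 8.50 and 8.57 and SNS-314 arrays 8.68, 9.11, 9.97 and 9.23, the latter overlapping the controls. It was called lower at 48 h only, by -1.42 ± 0.32 under AZD1152 (adjusted p = 0.000299) and by -0.77 ± 0.32 under SNS-314 (adjusted p = 0.0438). The SNS-314 call was lost without control replicate 3 (-0.46, adjusted p = 0.257), without SNS-314 48 h replicate 1 (-0.58, 0.166), 2 (0.0884) or 4 (0.0726), and under scaling to the 75th percentile (0.0518).

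All 9 measured polymerase and primase genes were called lower at 48 h with both inhibitors, with medians of -1.14 and -1.18. POLA2, the regulatory subunit of polymerase alpha, which starts new strands with primase, fell furthest in this group. It read 11.26, 11.21, 11.50 and 11.56 on the controls, 10.44, 10.55, 10.56 and 10.45 after 24 h of AZD1152 and 10.50, 10.39, 10.44 and 10.45 after 24 h of SNS-314. At 48 h it read 10.05, 9.86, 9.88 and 9.93, and 9.63, 9.78, 9.70 and 9.63. Each group stood apart from the controls and from the other time. The falls at 48 h were 2.74-fold (-1.45 ± 0.10, adjusted p = 1.6e-15) and 3.24-fold (-1.69 ± 0.10, adjusted p = 1.05e-17). POLA1, the catalytic subunit of that enzyme, changed by -1.14 ± 0.10 and -1.25 ± 0.10, and PRIM1, the catalytic subunit of primase, by -1.39 ± 0.09 and -1.57 ± 0.09.

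POLE, the catalytic subunit of the leading strand polymerase epsilon, changed by -1.0 ± 0.13 and -1.01 ± 0.13 at 48 h, and its accessory subunits POLE2 by -1.22 ± 0.09 and -1.38 ± 0.09 and POLE3 by -0.97 ± 0.11 and -0.84 ± 0.11. For polymerase delta, which copies the lagging strand, POLD1 changed by -1.11 ± 0.12 and -1.09 ± 0.12 and POLD3 by -1.17 ± 0.10 and -1.18 ± 0.10. Both were dim at 48 h, with 1 and 2 of 4 arrays above background for POLD1 and 2 and 3 of 4 for POLD3. POLD2, another delta subunit, changed least in the group. It read 11.90, 11.84, 11.97 and 11.81 on the controls, 11.09, 11.44, 11.15 and 11.26 with AZD1152 at 48 h and 11.07, 11.45, 11.29 and 11.28 with SNS-314. It was first called at 48 h, with falls of 1.56-fold (-0.64 ± 0.15, adjusted p = 0.000529) and 1.52-fold (-0.61 ± 0.15, adjusted p = 0.000992). At 18 h with AZD1152 its levels were higher and scattered, at 12.67, 12.01, 11.76 and 12.11, and did not differ from the controls by the test (0.26 ± 0.15, adjusted p = 0.233). A second POLD2 probe changed by -0.18 ± 0.13 and -0.20 ± 0.13 at 48 h (adjusted p = 0.295 and adjusted p = 0.228 over all probes).

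PCNA, the ring that keeps polymerases on DNA, changed less in size at 48 h than 5 of the 6 loader genes, a difference that was not tested. Its levels were 12.44, 12.50, 12.33 and 12.71 on the controls, 11.68, 11.66, 11.82 and 11.98 after 48 h of AZD1152 and 11.81, 11.64, 11.92 and 11.67 after 48 h of SNS-314. These groups did not overlap. The falls were 1.64-fold (-0.71 ± 0.09, adjusted p = 3.87e-08) and 1.67-fold (-0.74 ± 0.09, adjusted p = 1.63e-08). The first call was at 18 h with both, at -0.41 ± 0.09 for AZD1152 (adjusted p = 0.00187) and -0.31 ± 0.09 for SNS-314 (adjusted p = 0.0267). The SNS-314 call was lost without SNS-314 18 h replicate 2 or 4 or control replicate 2 or 4 (adjusted p = 0.0552 to 0.151), under scaling to the 75th percentile (0.116) and when only the 2 groups compared were fitted (0.0541). At 24 h the calls were lost without AZD1152 24 h replicate 3 or 4, SNS-314 24 h replicate 4 or control replicate 4 (adjusted p = 0.0568 to 0.124). The AZD1152 call at 24 h was also lost under scaling to the 75th percentile (0.0854) and with no background filter (0.0635). The SNS-314 call at 24 h was lost without the 3 arrays that stood apart (0.0538).

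The clamp loader is a ring of RFC1 to RFC5 that opens PCNA around primed DNA. RFC5 fell furthest, from 11.52, 11.52, 11.60 and 11.49 on the controls to 10.12, 10.06, 10.09 and 9.94 under AZD1152 and 9.79, 10.005, 9.85 and 9.88 under SNS-314 at 48 h. The falls were 2.78-fold (-1.48 ± 0.11, adjusted p = 6.24e-15) and 3.14-fold (-1.65 ± 0.11, adjusted p = 1.74e-16). Its AZD1152 call at 12 h (-0.34 ± 0.11, adjusted p = 0.0493) was lost without any 1 of the 8 arrays compared (adjusted p = 0.0766 to 0.152). RFC3 changed by -1.37 ± 0.11 and -1.48 ± 0.11 at 48 h, RFC4 by -1.04 ± 0.09 and -1.22 ± 0.09, and RFC2 by -1.03 ± 0.12 and -0.99 ± 0.12. The RFC3 probe ILMN_1711381 changed less at 48 h, by -0.84 ± 0.09 and -0.88 ± 0.09. A further RFC3 probe, ILMN_1658143, changed more, by -1.50 ± 0.13 and -1.69 ± 0.13. DSCC1, part of an alternative loader used in sister chromatid cohesion, changed by -1.15 ± 0.13 and -1.35 ± 0.13.

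RFC1, the large subunit that makes the loader specific for replication, had its lowest mean at 18 h by its brightest probe. The controls read 10.61, 10.48, 10.71 and 10.77, and the AZD1152 arrays 9.44, 10.12, 10.28 and 9.89 at 18 h but 10.28, 10.44, 10.36 and 10.27 at 48 h. The 9.44 was on AZD1152 18 h replicate 1, the array of its group with the lowest median correlation. With SNS-314 the arrays read 10.21, 10.22, 9.99 and 10.17 at 18 h and 10.21, 9.98, 10.25 and 10.29 at 48 h. The SNS-314 means at 12, 18 and 48 h were close, at 10.17, 10.15 and 10.18. RFC1 was lower with AZD1152 at 18 h (-0.71 ± 0.14, adjusted p = 0.000309) and was not called at 48 h (-0.31 ± 0.14, adjusted p = 0.0755), although all 4 arrays lay below the controls and the call was made when only the 2 groups compared were fitted (adjusted p = 0.0095). With SNS-314 it was lower at 48 h (-0.46 ± 0.14, adjusted p = 0.00695), a call lost when its probes were averaged (-0.22, adjusted p = 0.116). A second, dimmer RFC1 probe changed by -0.07 ± 0.16 and -0.13 ± 0.16 at 18 h (adjusted p = 0.827 and adjusted p = 0.708 over all probes) and by -0.07 ± 0.16 and 0.01 ± 0.16 at 48 h, so the 18 h fall was seen with the brightest probe and not called with the other. The SNS-314 call of RFC1 at 12 h (-0.47 ± 0.14, adjusted p = 0.0385) was lost without SNS-314 12 h replicate 3 or 4 or control replicate 1, 3 or 4 (adjusted p = 0.0576 to 0.299).

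**Figure D3:**
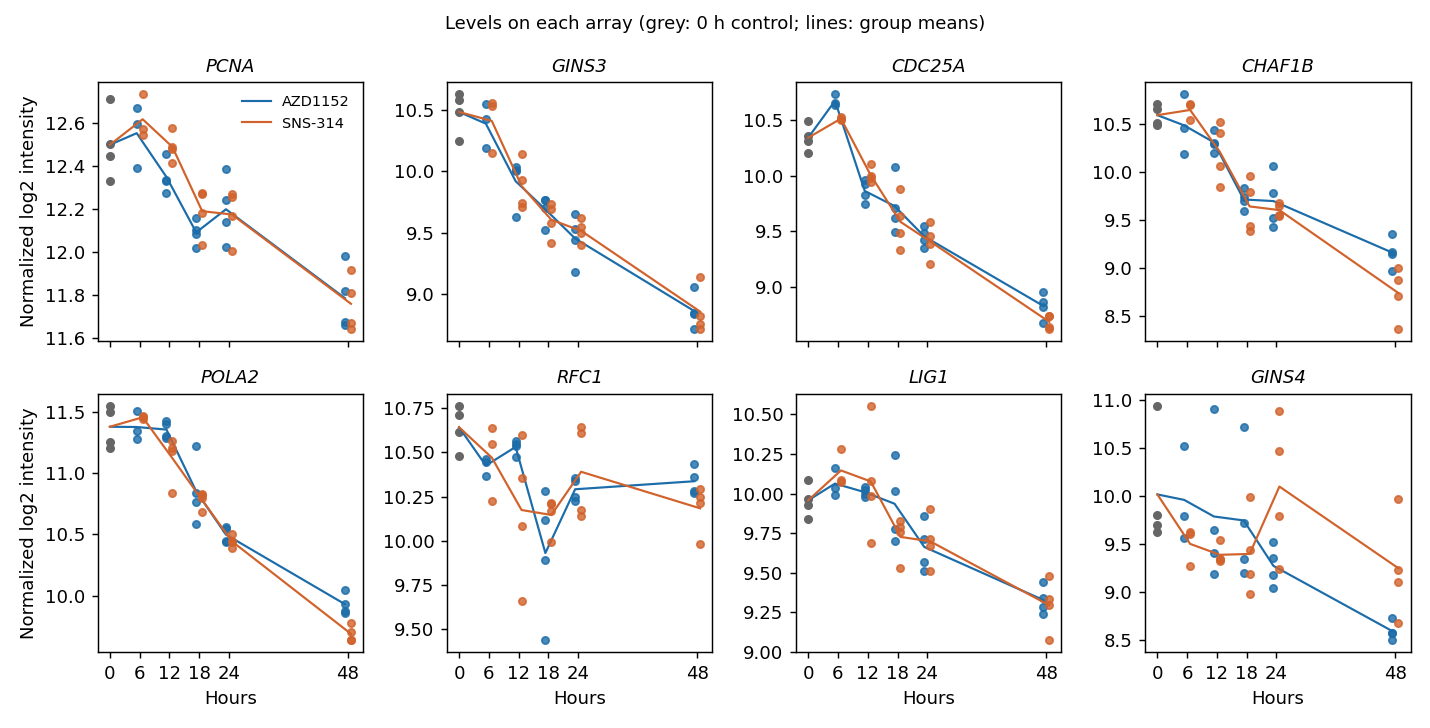
Normalized log2 intensity of 8 genes on each array against hours of inhibitor (grey, 0 h controls; blue, AZD1152; orange, SNS-314; lines join group means). PCNA, GINS3, CDC25A, CHAF1B and POLA2 decline to their lowest at 48 h, and LIG1 is also lowest at 48 h. RFC1 has its lowest mean at 18 h, close to its 12 and 48 h means with SNS-314. GINS4 has single arrays near 10.9 in several groups.

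Of the 5 measured single-strand binding and Okazaki fragment genes, 0 were called at 12 h, 2 were called at 18 h, 3 at 24 h and 5 at 48 h with each inhibitor. FEN1, the nuclease that trims the flaps of Okazaki fragments, read 12.80, 12.75, 12.84 and 12.71 on the controls. At 48 h the levels were 11.39, 11.42, 11.47 and 11.39 under AZD1152 and 11.43, 11.37, 11.45 and 11.40 under SNS-314. Both falls were 2.57-fold (-1.36 ± 0.10 each, adjusted p = 1.14e-14 and 7.83e-15), and the arrays of each group spanned less than the gap to the controls. By this probe FEN1 was first called at 18 h with both inhibitors. A second FEN1 probe changed by -0.04 ± 0.18 with AZD1152 and -0.35 ± 0.18 with SNS-314 at 18 h (adjusted p = 0.897 and adjusted p = 0.249 over all probes). At 48 h the second probe changed by -1.21 ± 0.18 and -1.10 ± 0.18.

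LIG1, the ligase that seals Okazaki fragments, was first called at 48 h. It read 9.93, 10.09, 9.97 and 9.84 on the controls, 9.24, 9.28, 9.34 and 9.44 under AZD1152 and 9.07, 9.48, 9.29 and 9.33 under SNS-314 at 48 h. The groups did not overlap, with falls of 1.55-fold (-0.63 ± 0.12, adjusted p = 4.59e-05) and 1.58-fold (-0.66 ± 0.12, adjusted p = 1.95e-05). Replication protein A coats single-stranded DNA as a trimer. RPA1 changed by -0.79 ± 0.11 and -0.82 ± 0.11 at 48 h, RPA2 by -1.10 ± 0.15 and -1.27 ± 0.15, and RPA3 by -0.72 ± 0.10 and -0.85 ± 0.10. They were first called at 24, 18 and 48 h, the same with both inhibitors. At 18 h of AZD1152, RPA2 read 10.42, 11.12, 11.83 and 11.53, overlapping the controls (11.71 to 11.94). The lowest of these, replicate 1, was the array of its group with the lowest median correlation. The other RPA1 probes were not called at 24 h (adjusted p = 0.071 to 0.369 over all probes).

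TIMELESS and TIPIN bind each other and hold the helicase and polymerases together at stalled forks. TIPIN read 9.51, 9.39, 9.50 and 9.46 on the controls, 8.16, 8.01, 8.02 and 8.19 with AZD1152 at 48 h and 8.24, 8.22, 8.18 and 8.02 with SNS-314. With AZD1152 no array was above background at 48 h, and the fall was at least 2.19-fold (fitted -1.37 ± 0.11, adjusted p = 9.68e-14). With SNS-314, with 1 of 4 arrays above background, it was 2.46-fold (-1.30 ± 0.11, adjusted p = 3.63e-13). Its SNS-314 call at 12 h (-0.41 ± 0.11, adjusted p = 0.0142) was lost without SNS-314 12 h replicate 4 (adjusted p = 0.0647). TIMELESS changed by -1.03 ± 0.13 and -1.13 ± 0.13 at 48 h.

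WDHD1, which ties polymerase alpha to the helicase, changed least in the fork protection group. Control arrays read 8.93, 9.17, 9.13 and 9.03, AZD1152 arrays 8.18, 7.96, 8.26 and 8.44 at 48 h, and SNS-314 arrays 8.11, 8.49, 8.32 and 8.53. The falls were 1.82-fold (-0.86 ± 0.12, adjusted p = 1.47e-07) and 1.63-fold (-0.70 ± 0.12, adjusted p = 6.2e-06). At 48 h 1 and 2 of the 4 arrays, respectively, were above background. Its first SNS-314 call, at 24 h (-0.38 ± 0.12, adjusted p = 0.0203), was lost without SNS-314 24 h replicate 1 or control replicate 2 or 3 (adjusted p = 0.0567 to 0.075).

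All 4 chromatin assembly and histone supply genes were called lower at 48 h, with medians of -1.37 under AZD1152 and -1.52 under SNS-314. CHAF1A and CHAF1B are subunits of chromatin assembly factor 1, which deposits histones on new DNA. CHAF1B read 10.66, 10.71, 10.49 and 10.52 on the controls and, at 48 h, 9.35, 9.17, 9.15 and 8.97 under AZD1152 and 8.88, 8.37, 9.004 and 8.72 under SNS-314. Its falls of 2.70-fold (-1.43 ± 0.14, adjusted p = 4.16e-11) and 3.61-fold (-1.85 ± 0.14, adjusted p = 2.87e-14) were first called at 18 h. CHAF1A, called from 12 h, read 9.13, 8.98, 8.94 and 8.95 on the controls, 8.41, 8.41, 8.42 and 8.46 after 12 h of AZD1152 and 8.36, 8.35, 8.22 and 8.28 after 12 h of SNS-314. The 12 h arrays lay below the controls, with changes of -0.57 ± 0.13 (adjusted p = 0.00472) and -0.70 ± 0.13 (adjusted p = 0.000361). CHAF1A was above background on 3 of 4 controls and on 0 arrays at 48 h, where the falls were at least 1.59-fold with AZD1152 and at least 1.62-fold with SNS-314 (fitted -1.53 ± 0.13 and -1.68 ± 0.13, adjusted p = 8.48e-13 and 4.62e-14).

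ASF1B, a histone chaperone that hands histones to that factor, changed by -1.30 ± 0.12 and -1.37 ± 0.12 at 48 h. SLBP binds the stem loop of replication-dependent histone mRNAs, which depend on it for processing and translation. It read 11.77, 11.68, 11.75 and 11.62 on the controls, 10.81, 11.08, 10.84 and 10.87 with AZD1152 at 48 h, and 10.73, 10.74, 10.63 and 11.05 with SNS-314. The groups stood apart, with falls of 1.75-fold (-0.80 ± 0.09, adjusted p = 7.85e-10) and 1.89-fold (-0.92 ± 0.09, adjusted p = 2.66e-11). By 24 h SLBP was, by its brightest probe, already lower by -0.69 ± 0.09 (adjusted p = 1.77e-07) and -0.58 ± 0.09 (adjusted p = 3.91e-06). Its first SNS-314 call, at 12 h (-0.32 ± 0.09, adjusted p = 0.0203), was lost without SNS-314 12 h replicate 3 or 4 or control replicate 1 or 3 (adjusted p = 0.0576 to 0.0792). The call was also lost when the SLBP probes were averaged (0.115). A second SLBP probe, above background on all 42 arrays, changed by -0.08 ± 0.14 at 12 h with SNS-314 (adjusted p = 0.815 over all probes). With AZD1152 and SNS-314 it changed by -0.33 ± 0.14 and -0.34 ± 0.14 at 18 h (0.0916 and 0.131). The changes were -0.35 ± 0.14 and -0.41 ± 0.14 at 24 h (0.0843 and 0.0352). At 48 h they were -0.72 ± 0.14 and -0.62 ± 0.14 (5.36e-05 and 0.00034).

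**Figure D4:**
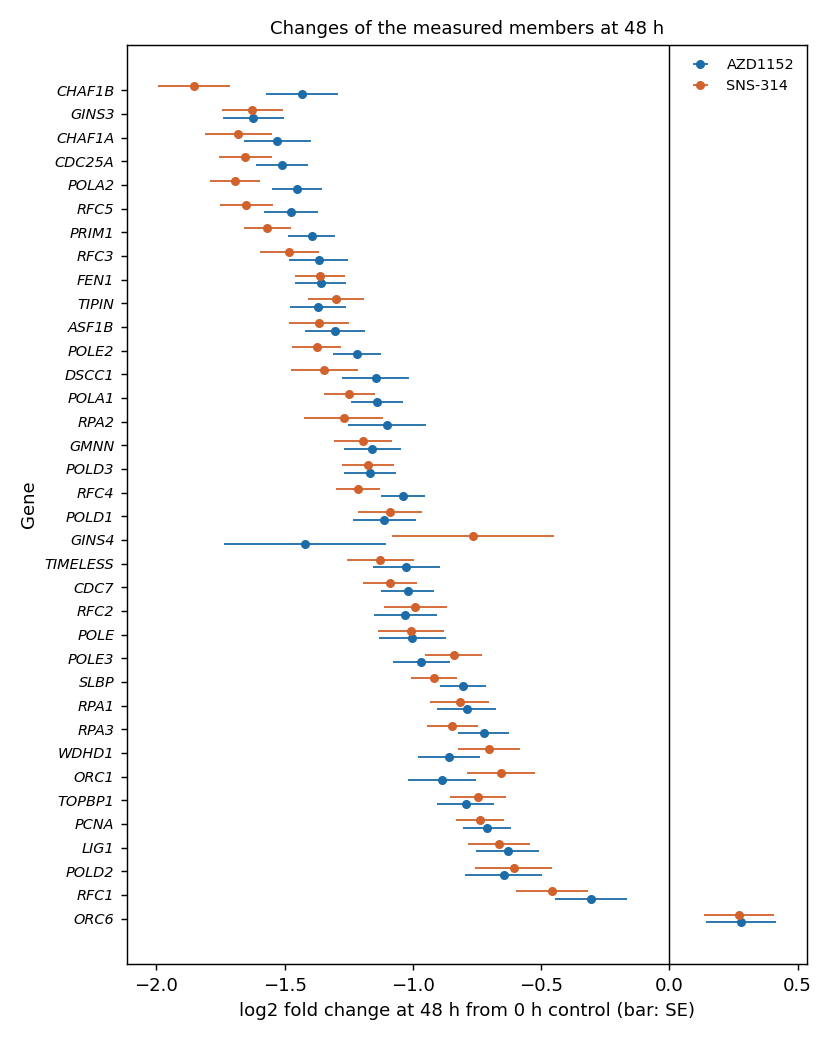
Log2 fold change from 0 h at 48 h for each of the 36 genes (points, blue for AZD1152 and orange for SNS-314; bars, 1 SE). CHAF1B with SNS-314 reaches -1.85, RFC1 lies at -0.31 and -0.46, and ORC6 by its brightest probe is the 1 gene above 0.

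The first call differed between genes. With AZD1152 the 36 genes were first called at 12 h (5 genes), 18 h (21), 24 h (5) and 48 h (4), and with SNS-314 at 12 h (9), 18 h (18), 24 h (4) and 48 h (4); ORC6, by its brightest probe, was never called. CDC25A, GINS3, CHAF1A and PRIM1 were called at 12 h with both inhibitors, RFC5 with AZD1152, and RFC1, TIPIN, POLE2, POLD3 and SLBP with SNS-314. PRIM1, POLE2 and POLD3 are named after their values were seen. A second PRIM1 probe, above background on all 42 arrays, was not called at 12 h. It changed by -0.05 ± 0.10 with AZD1152 and -0.26 ± 0.10 with SNS-314 (adjusted p = 0.867 and adjusted p = 0.116 over all probes). At 18 h that probe changed by -0.73 ± 0.10 and -0.71 ± 0.10 (adjusted p = 6.56e-07 and adjusted p = 1.81e-06). GINS4, POLD2, RPA3 and LIG1 were first called at 48 h with both inhibitors. Since both series are compared with the same 4 controls, calls at the same time are not independent.

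Neighbouring times were also compared directly, without the controls. From 6 to 12 h, 4 of the 36 genes were called lower with AZD1152 and 6 with SNS-314 (1.97% and 3.39% of all genes). The AZD1152 genes were CDC25A (-0.81, adjusted p = 2.3e-06), GINS3, POLD3 and PRIM1. From 12 to 18 h the counts were 18 and 10 (6.41% and 0.583% of all genes), and from 18 to 24 h 2 and 0 (1.11% and 0.83%). The 2 genes were ASF1B (-0.45, adjusted p = 0.033) and POLA2 (-0.35, adjusted p = 0.047). At an unadjusted p below 0.05, 13 genes were lower with AZD1152 and 6 with SNS-314 (8.56% and 5.33% of all genes), while RFC1 with AZD1152 and GINS4 with SNS-314 were higher. From 24 to 48 h 28 and 30 genes were called lower (13.6% and 13% of all genes). The median change over a step was -0.20 and -0.21 from 6 to 12 h, -0.31 and -0.30 from 12 to 18 h, -0.18 and -0.11 from 18 to 24 h, and -0.44 and -0.53 from 24 to 48 h, the last step being 24 h long and the others 6 h. None of the 36 was called higher over any step, against 1.16%, 7.23%, 0.92% and 14% of all genes over the successive steps of AZD1152 and 1.86%, 0.673%, 0.269% and 13.2% over those of SNS-314.

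Several of these step counts rest on single arrays. The 6 to 12 h count with AZD1152 was 1 without 6 h replicate 1 or 12 h replicate 4, and 2 without 6 h replicate 3 or 12 h replicate 2 or 3; with SNS-314 it was 3 without 6 h replicate 1. The 12 to 18 h count with SNS-314 was 6 without 18 h replicate 1 and 3 without 18 h replicate 4. The 18 to 24 h count with AZD1152 was 0 without any 1 of the 24 h replicates, 1 without 18 h replicate 1 or 4, and 6 without 18 h replicate 2 or 3. Without the 3 arrays that stood apart it was 1. From 24 to 48 h, leaving out any 1 array gave counts of 24 to 27 with AZD1152 and 25 to 29 with SNS-314.

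**Figure D5:**
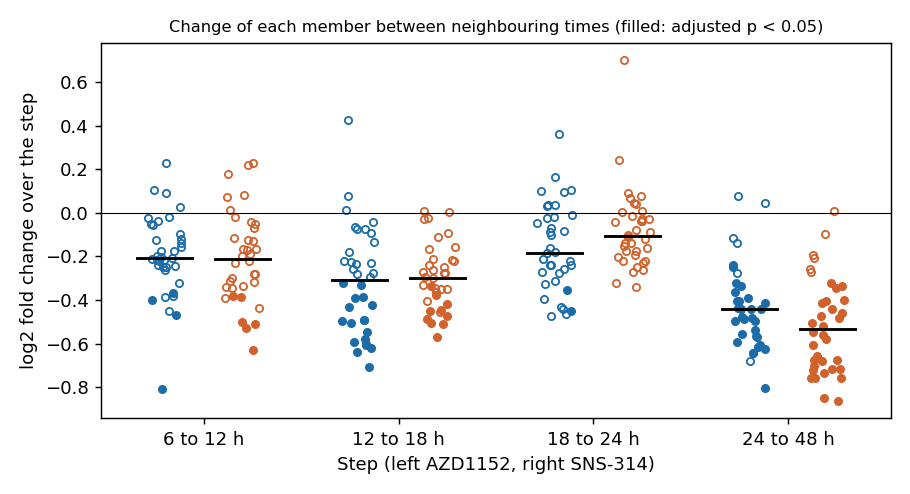
Log2 fold change of each of the 36 genes between neighbouring times (blue, AZD1152; orange, SNS-314; filled points, adjusted p below 0.05; black lines, medians). Filled points are scarce from 18 to 24 h (2 and 0) and make up 28 and 30 of the 36 from 24 to 48 h.

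The inhibitors differ in their targets and doses, 0.5 and 0.05 µM, so this comparison is of these treatments and not of compounds at matched doses. Set against each other at the same time, they differed in 0 of the 36 genes at each of the 5 times (limma, adjusted over all genes; 0%, 0%, 0.0336%, 0% and 0% of all genes). At an unadjusted p below 0.05, in either direction, the counts were 1, 6, 3, 2 and 4 of 36, against 3.14%, 6.47%, 11.8%, 3.33% and 3.03% of all genes. The median 95% confidence interval of a gene reached 0.267 on either side of its estimate at 6 h and 0.231 at later times on the log2 scale. For a gene with such an interval, a smaller difference could not be told from 0. Intervals were narrower for some genes and wider for others, and larger differences were also not called after adjustment. At 48 h CHAF1B was 0.42 higher with AZD1152 than with SNS-314 (95% confidence interval 0.14 to 0.70) and POLA2 0.24 higher (0.04 to 0.44), both with an adjusted p that rounds to 1. GINS4 had the largest difference at each time, -0.82 ± 0.32 at 24 h and -0.65 ± 0.32 at 48 h (AZD1152 minus SNS-314), with an adjusted p that rounds to 1 and the scatter between its arrays described above.

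A list of 35 other replication genes, outside the 40, was counted in the same comparisons: 29 were measured, of which 24 were called lower at 48 h with AZD1152 and 25 with SNS-314, and 0 were called higher. At 18 h 14 and 14 were lower, and at 24 h 19 and 19. Its median changes at 48 h were -0.90 and -0.99. GINS2, the GINS subunit missing from the 40, changed by -1.84 ± 0.11 and -2.03 ± 0.11, and RRM2, a subunit of ribonucleotide reductase, by -1.99 ± 0.21 and -1.69 ± 0.21. At the other end stood POLD4 (-0.06 ± 0.10 and 0.07 ± 0.10) and POLE4 (-0.12 ± 0.11 and -0.06 ± 0.11), small polymerase subunits that were not called.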

How the data were processed

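The non-normalized table deposited by the authors holds the intensity of 47312 probes on 42 arrays, and their second table holds log2 values normalized by the authors; the labels do not state their steps. Of the 2 header lines of the intensity table, the second was used: it names the best matching deposited log2 column for 42 of 42 columns, the first for 1 (lowest rank correlation 0.999977). With limma 3.58.1 in R 4.3.3, intensities received normexp background correction with an offset of 50 and quantile normalization between arrays before log2 was taken. Background was a threshold per array at the 95th percentile of a normal distribution built from the mode of the log2 signal and its lower flank. A probe above it on at least 3 arrays of 1 group was kept (13481 probes), and the brightest kept probe stood for each of 8917 genes (1983 had several). The platform annotation gives 1 symbol for 30110 probes, several for 8 and none for 17194. For a group with no array above background, folds are bounds against the threshold.

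A group-means model over all 42 arrays and 11 groups gave 23 comparisons (10 with 0 h, 8 steps, 5 between inhibitors), with Benjamini-Hochberg adjustment within each. The number of arrays limits the precision (median SE 0.116). The script was tested on simulated data. The genes and lists were chosen with earlier results of these data known. Values on every array are given for PCNA, CDC6, ORC1, GMNN and SLBP, for the measured gene of each role with the largest and smallest mean change at 48 h, and for the first 3 genes called at the earliest time. CDC6 was not measured.

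The median residual correlation of arrays was 0.176 within a suffix group and -0.0927 across groups (arrays whose names end in the same number). Same-numbered arrays of both inhibitors deviated together at 6 h (r 0.150 to 0.277), 12 h (0.150 to 0.324) and 24 h (0.280 to 0.424). These times were counted as pairing. At 18 h (-0.0491 to 0.401) only the pair of replicate 1 was negative. At 48 h (0.0671 to 0.288) every pair was positive. Those 2 times were not counted as pairing, and whether their arrays are paired was not tested. Pairs with the controls ran from -0.171 to 0.388 and were not counted either. All the inhibitor pairs also share a suffix group, so number and suffix cannot be told apart. Alternatives were other scalings, filters and probe rules, the deposited values, blocks for replicate number and suffix group, an intensity trend, fits of 2 groups and leaving out arrays. Leaving out 3 arrays together, and reading ORC6 from its other probe, were chosen after seeing the data. Promoters were read from RefSeq tables of GRCh38.p14.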

Additional observations from a re-analysis of the deposited data

Results flagged for a closer look

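In groups of 4 arrays, 10 of 171 values tested for the named genes and for the median of the 36 genes had 1 array set apart from the other 3 by Dixon's criterion; chance flags about 5% of such groups, and no explanation was weighed. GINS4 stood at 10.94 on control replicate 3, against 9.62 to 9.80 on the other controls, and at 9.54 on SNS-314 12 h replicate 1, against 9.33 to 9.34. AZD1152 12 h replicate 4 was set apart in 3 genes: GINS3 was at 9.63 (others 10.005 to 10.04), RFC5 at 11.11 (11.20 to 11.22) and CHAF1A at 8.46 (8.41 to 8.42). TIPIN was at 9.28 on SNS-314 12 h replicate 1 (8.95 to 8.999), SLBP at 10.81 on SNS-314 18 h replicate 4 (11.14 to 11.20), and CHAF1A at 9.13 on control replicate 1 (8.94 to 8.98). The median level of the 36 genes was 10.76 on AZD1152 12 h replicate 3 (10.62 to 10.63 on the others) and 10.43 on SNS-314 12 h replicate 2 (10.58 to 10.60). In each case the other 3 arrays lay closer together than any pair with the 1 set apart.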

How the results depend on the processing

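Counts of genes called lower at 18, 24 and 48 h against 0 h, and from 24 to 48 h, stayed within 1.5 times of the main count under every alternative run, and no count or median reversed. At 12 h against 0 h the counts of 5 (AZD1152) and 9 (SNS-314) became 3 and 4 with scaling to the 75th percentile, and 3 and 4 with no filter; with SNS-314 the count was 3 with only the groups compared and 5 without the 3 arrays that stood apart. For AZD1152 from 6 to 12 h, the count of 4 became 1 with no filter, and from 12 to 18 h 5 with only the groups compared. From 18 to 24 h the AZD1152 count of 2 became 0 under percentile scaling, without a filter or with only the groups compared, 1 without the 3 arrays, 4 with probes above background on all arrays, and 6 with suffix group as a fixed or a random block. For SNS-314 the count from 6 to 12 h was 3 with only the groups compared and 10 with suffix group as a random block, from 12 to 18 h 4 with scaling or no filter and 0 with only the groups compared, and from 18 to 24 h 1 with suffix group as a random block. The replicate block used all replicate numbers, although pairing was counted only between the inhibitors' arrays at 6, 12 and 24 h. With that block the AZD1152 count from 18 to 24 h was 5 and the counts at 48 h stayed at 34 and 35. The counts between the inhibitors stayed at 0, and no other count moved by more than 1.5 times. The cause of these shifts was not tested.

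Leaving out 1 array gave 0 to 0 at 6 h, 3 to 5 and 4 to 11 at 12 h against 0 h (AZD1152 and SNS-314). Over the steps the ranges were 1 to 4 and 3 to 9 (6 to 12 h), 13 to 18 and 3 to 9 (12 to 18 h), 0 to 6 and 0 to 0 (18 to 24 h). Between the inhibitors the range was 0 to 0 at every time. The 48 h change of ORC6 reversed when its probes were averaged (-0.46 with AZD1152, -0.52 with SNS-314) and when it was read from its other probe (-1.20 and -1.31), since the probes differ; with the replicate block its brightest probe was called higher (adjusted p = 0.0218 and adjusted p = 0.0241). The median change of the 36 genes at 48 h was smaller with no background correction (-1.02 and -1.06) and with the deposited values (-0.99 and -1.02). Dim genes (CHAF1A, ORC1, POLD1, POLD3, TIPIN, WDHD1) are limited by signal over background.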
